A study of Mus musculus with 8 samples.

Results

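The circadian clock genes *Dbp*, *Tef*, *Nfil3*, *Per1*, *Per2*, *Per3*, *Nr1d1*, *Nr1d2*, *Ciart*, and *Arntl* were examined in RNA-Seq of mouse pancreas. They were chosen by name, as the rows whose gene name equals 1 of these 10 symbols, and all 10 were found among the 48709 genes of each library. The study asked what loss of *Pfkfb3*, a gene of glycolysis regulation, does in alcohol-related acute pancreatitis. WT mice were compared with cKO mice, in which *Pfkfb3* is flanked by LoxP sites and deleted by Cre under the *Pdx1* promoter, a promoter active in the developing pancreas and in islets. FAEE-SAP, a severe acute pancreatitis model based on fatty acid ethyl esters, was induced with palmitoleic acid (POA) and ethanol, and control mice received saline. Pancreata were taken from male mice at 8 weeks of age, 24 hours after induction, with 2 libraries in each of the 4 groups (WT saline, cKO saline, WT FAEE-SAP, and cKO FAEE-SAP). The design text calls the libraries of a group biological replicates, and the sources used here do not say whether each came from its own mouse, so the p-values measure only the spread between these libraries. WT mice were bought, whereas the floxed line was made in C57BL/6J eggs, so line and genotype cannot be told apart. All mice were fasted before induction, and FAEE-SAP mice also received buprenorphine, which cannot be told apart from POA and ethanol here. The clock times of injection and collection are not given in the sources used here, so time of day and group cannot be told apart either.

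The mammalian clock is a transcriptional feedback loop that runs in nearly every cell. The activator BMAL1, encoded by *Arntl*, pairs with CLOCK at E-boxes and drives the *Per*, *Cry*, and *Nr1d* genes and the output genes *Dbp* and *Tef*, whose products in turn hold the loop back or pass it on. The NR1D nuclear receptors repress *Arntl* through ROR elements, so *Arntl* and *Dbp* peak at nearly opposite times of day in most mouse tissues, and DBP and TEF activate D-box genes that NFIL3 represses. Peripheral clocks, that of the pancreas among them, are set by feeding, glucocorticoids, and temperature, and *Per1* also responds to these signals within hours.

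Since clock genes share a few short regulatory motifs, the RefSeq promoter windows of the members (GRCm38.p6) were searched on both strands. The letters sought were the E-box CACGTG, the D-box TTATGNAA, and AGGTCA, the core of a ROR element without its flanking bases. This core alone is meant by ROR element in this search. Of all 32851 windows, 6.02% held the E-box, 3.07% the D-box, and 14.0% the ROR element, and by gene these shares were 6.86%, 3.63%, and 15.8% of 27025 genes. An entry was found for 9 of the 10 members, all but *Per2*. The E-box was found in *Ciart*, *Per1*, and *Tef*, the D-box in *Per3* and *Per1*, and the ROR element in *Per1*, *Nfil3*, and *Nr1d2*. Only the short part of each window just upstream of the RefSeq start was searched. None of these letters was found there for *Dbp*, *Nr1d1*, and *Arntl*, and sites further upstream or past the start were not searched. A match is only a match of letters. The stretches below, which lie outside annotated exons, show how the matches are placed in the members of each role, with the motif matches in capitals and the gene's strand as given. The *Per1* stretch holds the letters of all 3.
Ciart, chr3:95882252-95882364, minus strand: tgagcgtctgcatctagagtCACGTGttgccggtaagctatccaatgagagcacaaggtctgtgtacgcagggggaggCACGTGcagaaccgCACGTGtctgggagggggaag
Per1, chr11:69098763-69098947, plus strand: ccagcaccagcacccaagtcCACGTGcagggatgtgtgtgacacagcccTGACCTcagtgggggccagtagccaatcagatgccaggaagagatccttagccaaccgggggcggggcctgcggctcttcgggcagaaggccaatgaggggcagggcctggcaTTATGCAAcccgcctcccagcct
Tef, chr15:81811256-81811301, plus strand: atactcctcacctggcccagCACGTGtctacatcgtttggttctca
Per3, chr4:151044796-151044890, minus strand: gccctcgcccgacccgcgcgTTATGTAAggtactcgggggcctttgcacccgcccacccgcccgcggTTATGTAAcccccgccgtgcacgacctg
Nr1d2, chr14:18239158-18239203, minus strand: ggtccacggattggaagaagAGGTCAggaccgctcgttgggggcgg
The 3 E-boxes of *Ciart* lie at positions -116, -58, and -44 relative to the RefSeq start, and the D-boxes of *Per3* at -205 and -158.

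The deposited unit was RPKM, reads per kilobase of exon scaled to the library's mapped reads. Low RPKM values step by whole reads and gave library totals of 22.9 to 37.8 M reads. Each library was divided by 1 factor, the median of its ratios to the geometric mean, which ranged from 0.621 in cKO saline to 2.02 in WT FAEE-SAP. As deposited, the median gene was 1.24 higher on the log2 scale in WT FAEE-SAP than in WT saline and fell by 0.91 from WT FAEE-SAP to cKO FAEE-SAP. All values below are scaled RPKM, and tests used limma on log2(scaled RPKM + 0.1), in which a gene was called at a Benjamini-Hochberg adjusted p under 0.05 and at least a 2-fold change. The summed scaled RPKM of 8 acinar markers was 99350 to 110200 in WT saline, 25960 to 30470 in WT FAEE-SAP, 120000 to 135500 in cKO saline, and 62610 to 65790 in cKO FAEE-SAP. As a share of summed RPKM, which needs no scaling between libraries, these markers took 14.2% and 15.3%, 10.5% and 11.9%, 15.1% and 13.7%, and 12.1% and 10.5% in the same order, so that the genotypes overlapped with FAEE-SAP. That of 5 neutrophil markers was 1.32 to 2.22, 53.0 to 58.5, 1.21 to 3.65, and 12.2 to 19.6, again in that order. That of 6 islet markers was 271 to 320, 170 to 228, 290 to 358, and 411 to 427, and no marker of these lists was at 0 in both libraries of a group. WT FAEE-SAP also stood above WT saline for 5 ductal markers, at 13.1 to 13.9 against 8.60 to 10.7, and cKO FAEE-SAP stood at 9.91 to 10.5. For 5 adipocyte markers WT FAEE-SAP stood at 76.4 to 105.1 against 31.7 to 56.5 in WT saline, with *Lep* at 0 in the latter, and overlapped with cKO FAEE-SAP at 22.4 to 79.9. The summed levels of macrophage, lymphoid, endothelial, and fibroblast markers overlapped between the WT groups, but some single markers did not, among them *Cd14*, named after its values were seen, at 1.02 to 1.42 in WT saline and 12.6 to 14.3 in WT FAEE-SAP. Their part in the clock gene results was not tested, and in such bulk tissue fewer cells of a type and less RNA per cell cannot be told apart. *Pfkfb3* itself overlapped between the genotypes under both treatments, and a value per gene does not check a deletion of exons 2 and 3.

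*Dbp* and *Nr1d1* rose with FAEE-SAP in WT pancreas, and *Nr1d1* was lower in cKO than in WT pancreas with FAEE-SAP. This last call rests on an expression minimum that both WT FAEE-SAP but not both cKO FAEE-SAP libraries reached, and it was lost with a minimum on the mean of all 8 libraries (limma adjusted p = 0.0526). In WT mice, *Tef*, *Per3*, and *Nr1d2* also lay above and *Arntl* below both saline libraries, and none of these was called. Thus 2 of 10 members were called in WT mice, both higher, beside 6.89% of all genes tested, or 3.11% counted in that direction. Between the genotypes with FAEE-SAP, 1 of 10 was called, and lower, beside 1.17% of all genes, or 0.354% in that direction. *Per1*, *Per2*, *Ciart*, and *Nfil3* overlapped in every comparison, except *Nfil3* between the saline groups. After saline, 0 of 8 members tested were called between the genotypes (0.0% of 8715 genes), and 1 of 8, *Nfil3*, had an unadjusted p under 0.05 with limma, beside 2.27% of all genes. The saline groups did not overlap for 2 of 8, *Nr1d1* and *Nfil3*, beside 28.3% of all genes. In cKO mice 0 of 8 members were called with limma between FAEE-SAP and saline (0.0531% of genes), and 2 of 8, *Tef* and *Nr1d1*, had an unadjusted p under 0.05, beside 9.56%. There, 3 of 8 did not overlap, *Tef*, *Nr1d1*, and *Nr1d2*, beside 43.2% of all genes. *Per3* and *Ciart* were under the expression minimum, a deposited RPKM of 0.5 in 2 libraries, in these last 2 comparisons.

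**Figure D1:**
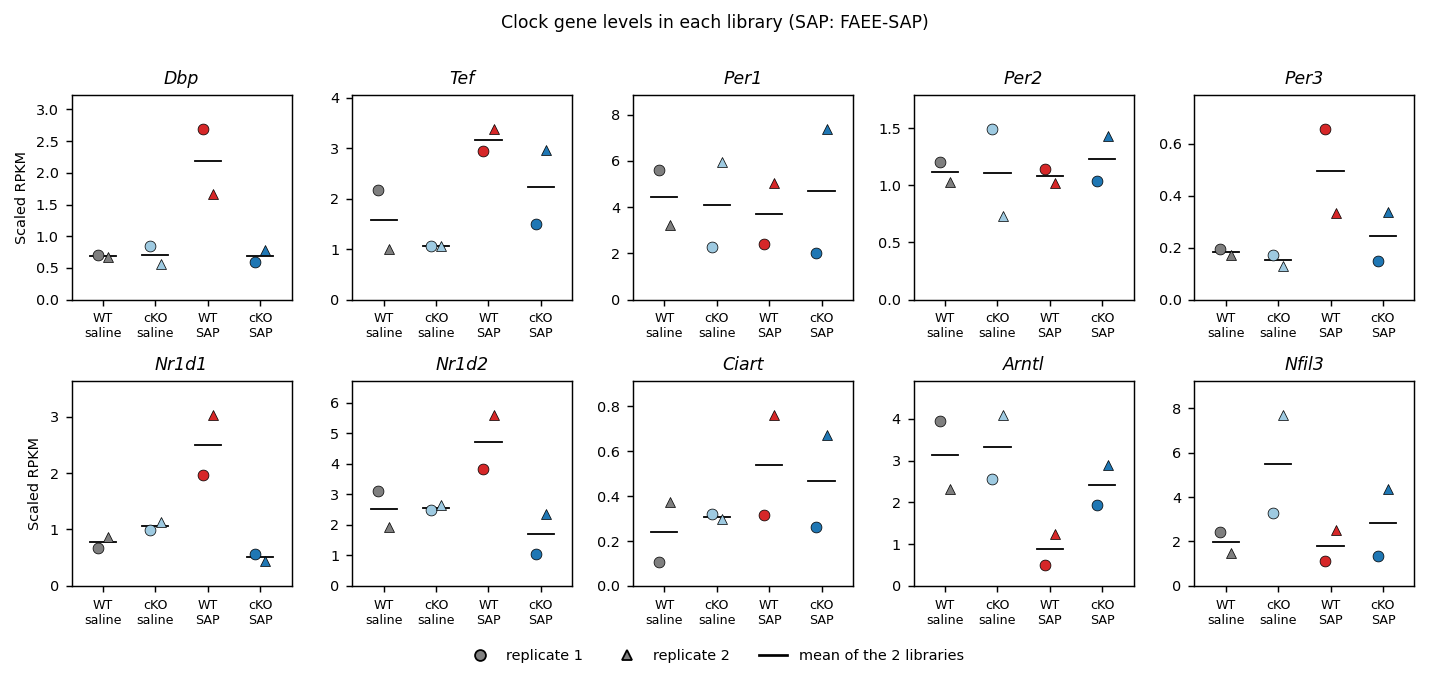
Scaled RPKM (vertical axis, linear from 0) of the 10 clock genes in the 8 libraries, by group. Circles are replicate 1, triangles replicate 2, and lines the mean of the 2 libraries. *Dbp*, *Nr1d1*, and *Nr1d2* are highest and *Arntl* lowest in both WT FAEE-SAP libraries, and the 2 libraries of a group lie far apart for *Per1* and *Nfil3*.

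The members differed widely in abundance. In WT saline pancreas *Per1* was the most abundant at 4.42 ± 1.67 scaled RPKM (SD, n = 2). *Arntl* followed at 3.14 ± 1.15 and *Nr1d2* at 2.52 ± 0.816. *Nfil3* at 1.97 ± 0.661 and *Tef* at 1.58 ± 0.834 came next. These 5 genes overlapped with their neighbors in the order, and so did *Tef* and *Per2*. *Per2* stood at 1.12 ± 0.124, *Nr1d1* at 0.771 ± 0.133, and *Dbp* at 0.695 ± 0.0241. *Per2* was above *Nr1d1* in both libraries, whereas *Nr1d1* and *Dbp* overlapped and were both above *Ciart*. *Ciart* at 0.240 ± 0.189 and *Per3* at 0.184 ± 0.0177 were the least abundant and did not differ beyond their spread. The order was another one in WT FAEE-SAP pancreas, where *Nr1d2* led at 4.71 ± 1.24, *Nr1d1* stood at 2.50 ± 0.743, *Dbp* at 2.18 ± 0.725, and *Arntl* at 0.874 ± 0.518. Counting error limits the lowest members, since the *Ciart* values rest on about 5 to 109 reads and those of *Per3* on about 26 to 293 reads per library.

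The proline and acidic amino acid-rich (PAR) bZIP factors pass clock time on to D-box genes. *Dbp* (chr7:45705088-45710203, plus strand, GRCm38) has one of the steepest daily rhythms in many tissues. In scaled RPKM, it stood at 0.712 and 0.678 in WT saline and at 2.69 and 1.67 in WT FAEE-SAP. It was 0.841 and 0.560 in cKO saline and 0.590 and 0.775 in cKO FAEE-SAP. Both WT FAEE-SAP libraries lay above the other 6 libraries, which overlapped with each other. *Dbp* rose in WT mice by a log2 fold change of 1.48 (SE 0.29, limma adjusted p = 0.0395, Benjamini-Hochberg), and the call was lost without any 1 of the 4 libraries (1.15 to 1.81, adjusted p 0.103 to 0.134). The difference between cKO and WT with FAEE-SAP was -1.51 (SE 0.31, limma adjusted p = 0.0954). Exons of *Dbp* share 539 bases with *Sphk2* on the other strand, which is 18.0% of its exonic length, and whether strand was used in counting is not given in the sources used here. *Sphk2*, a sphingosine kinase gene, was at 1.91 and 1.41 in WT saline and 2.42 and 4.45 in WT FAEE-SAP. Reads of *Sphk2*, spread evenly over its exons, could have been counted for *Dbp* over the shared bases. They would have added 0.344 and 0.254 to the *Dbp* values of WT saline and 0.436 and 0.802 to those of WT FAEE-SAP. In cKO FAEE-SAP they would have added 0.262 and 0.452. Each is less than the value measured, but 0.802 stands against 1.67 in WT FAEE-SAP replicate 2. The part of *Sphk2* in the *Dbp* differences was not tested.

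*Tef* (chr15:81802421-81826863, plus strand) encodes a factor of the same family with a shallower rhythm. It measured 2.17 and 0.994 in WT saline, 2.94 and 3.38 in WT FAEE-SAP, 1.07 and 1.07 in cKO saline, and 1.50 and 2.97 in cKO FAEE-SAP. The FAEE-SAP libraries lay above the saline libraries in each genotype, and those of the genotypes overlapped. Its log2 fold change was 1.05 (SE 0.37, limma adjusted p = 0.140) in WT and 0.92 (SE 0.34, limma adjusted p = 0.511) in cKO mice, neither past the threshold. These values rest on single libraries, at 0.52 without WT saline replicate 2 and 1.57 without WT saline replicate 1, and at 0.45 without cKO FAEE-SAP replicate 2 and 1.39 without cKO FAEE-SAP replicate 1.

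*Nfil3* (chr13:52967209-52981073, minus strand) encodes the repressor that competes with DBP and TEF for D-boxes. It measured 2.44 and 1.50 in WT saline and 3.26 and 7.68 in cKO saline. With FAEE-SAP it stood at 1.13 and 2.50 in WT mice and at 1.35 and 4.35 in cKO mice. Among the 4 comparisons, its groups were apart between the genotypes after saline, with both cKO libraries higher, a log2 fold change of 1.34 (SE 0.46, limma adjusted p = 0.9999), which was 0.74 without cKO saline replicate 2 and 1.95 without cKO saline replicate 1. No gap of *Nfil3* between groups passed the test, and its libraries within a group differed up to 3.22-fold.

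The PER proteins form the repressor complex of the loop with the cryptochromes. *Per1* (chr11:69095217-69109960, plus strand), the acutely inducible one, measured 5.60 and 3.24 in WT saline, 2.41 and 5.02 in WT FAEE-SAP, 2.26 and 5.94 in cKO saline, and 2.01 and 7.38 in cKO FAEE-SAP. All 4 groups overlapped, and the libraries of 1 group differed 1.73-fold to 3.67-fold. *Per2* (chr1:91415982-91459324, minus strand) was the flattest member, at 1.21 and 1.03 in WT saline, 1.14 and 1.02 in WT FAEE-SAP, 1.49 and 0.728 in cKO saline, and 1.03 and 1.43 in cKO FAEE-SAP. No pair of groups was separate for *Per2* either.

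*Per3* (chr4:151003652-151044665, minus strand), a family member that cycles in many tissues, was low throughout. It measured 0.197 and 0.171 in WT saline, 0.657 and 0.333 in WT FAEE-SAP, 0.173 and 0.130 in cKO saline, and 0.148 and 0.338 in cKO FAEE-SAP. The WT FAEE-SAP libraries lay above both WT saline libraries, but the lower of them lay just under the higher cKO FAEE-SAP library. The log2 fold change in WT mice was 1.01 (SE 0.35), on a scale where the pseudocount of 0.1 shrinks so low a gene, and was 0.61 without WT FAEE-SAP replicate 1. No test is read from it, since only the WT FAEE-SAP libraries took *Per3* past the expression minimum. Its stretch above holds 2 D-boxes.

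The NR1D receptors (REV-ERBs) repress *Arntl*. *Nr1d1* (chr11:98767932-98775333, minus strand) measured 0.676 and 0.865 in WT saline and 1.97 and 3.03 in WT FAEE-SAP. It measured 0.984 and 1.14 in cKO saline and 0.574 and 0.442 in cKO FAEE-SAP. No groups overlapped in these values, so that FAEE-SAP libraries were the highest in WT and the lowest in cKO mice. *Nr1d1* rose in WT mice by a log2 fold change of 1.56 (SE 0.28, limma adjusted p = 0.0352), and in cKO mice the value was -0.94 (SE 0.23, limma adjusted p = 0.408). With FAEE-SAP it was lower in cKO than in WT mice by a log2 fold change of -2.08 (SE 0.29, limma adjusted p = 0.0445). Both calls were lost without any 1 of their 4 libraries, with 1.26 to 1.85 (adjusted p 0.0728 to 0.171) in WT mice and -2.37 to -1.78 (adjusted p 0.0896 to 0.338) between the genotypes. The call between the genotypes was also lost with a minimum on the mean of all 8 libraries (limma adjusted p = 0.0526). The comparisons share the WT FAEE-SAP libraries and are not independent. *Nr1d1* shares 263 bases, 8.55% of its exonic length, with the thyroid hormone receptor gene *Thra* on the other strand. *Thra* ran the other way, at 2.30 and 2.17 in WT saline, at 1.09 and 0.971 in the WT FAEE-SAP libraries, and at 2.48 and 2.62 in those of cKO FAEE-SAP. Reads of *Thra* over the shared bases would have added at most 0.224 to any *Nr1d1* value.

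*Nr1d2* (chr14:18204054-18239127, minus strand), the paralog with overlapping function, measured 3.10 and 1.94 in WT saline, 3.83 and 5.58 in WT FAEE-SAP, 2.47 and 2.63 in cKO saline, and 1.06 and 2.34 in cKO FAEE-SAP. Both WT FAEE-SAP libraries were the highest of the 8, and both cKO FAEE-SAP libraries lay below those of cKO saline. The log2 fold change was 0.89 (SE 0.31, limma adjusted p = 0.134) for FAEE-SAP in WT mice and -1.49 (SE 0.41, limma adjusted p = 0.148) for cKO against WT with FAEE-SAP. No gap of *Nr1d2* passed the adjusted threshold in the main model, and leaving out 1 library in turn gave 0.56 to 1.21 for the first and -2.03 to -0.95 for the second. With replicate number as a block the second was called, beside 717 of all genes, against 129 without it.

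*Ciart* (chr3:95878503-95882251, minus strand) encodes CHRONO, a repressor of CLOCK and BMAL1, and its promoter holds 3 E-boxes. It measured 0.107 and 0.374 in WT saline, 0.314 and 0.761 in WT FAEE-SAP, 0.321 and 0.297 in cKO saline, and 0.260 and 0.674 in cKO FAEE-SAP. All 4 groups overlapped at this low level.

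*Arntl* (chr7:113207465-113314126, plus strand), the activating arm, measured 3.95 and 2.33 in WT saline and 0.508 and 1.24 in WT FAEE-SAP. It measured 2.56 and 4.09 in cKO saline and 1.93 and 2.89 in cKO FAEE-SAP. The WT FAEE-SAP libraries were the lowest of the 8 and did not overlap with any other group. The log2 fold change was -1.80 (SE 0.45, limma adjusted p = 0.0680) for FAEE-SAP in WT mice and 1.45 (SE 0.43, limma adjusted p = 0.169) for cKO against WT with FAEE-SAP, neither past the threshold in the main model. With replicate number as a block the second was called, beside 717 of all genes, against 129 without it. Leaving out 1 library in turn gave -2.37 to -1.23 for the first and 0.88 to 2.02 for the second, both ends of which come from leaving out a WT FAEE-SAP library.

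**Figure D2:**
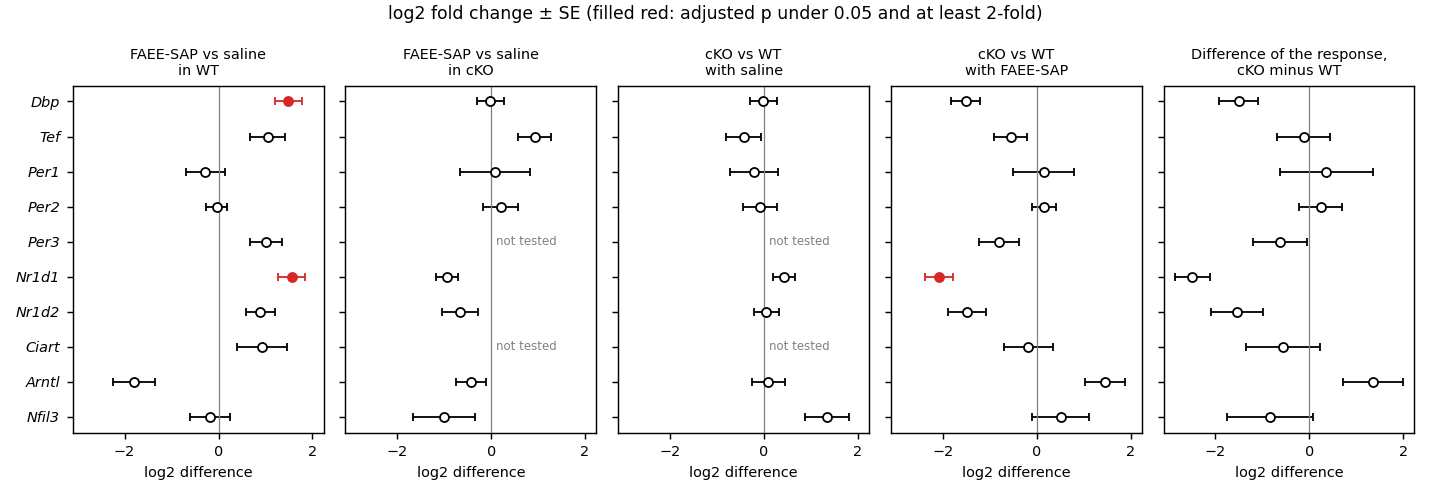
The log2 fold change of each clock gene (horizontal axis, points with bars of 1 SE from limma) in the 4 comparisons and in the difference of the FAEE-SAP response between the genotypes. Filled red points were called, *Dbp* at 1.48 and *Nr1d1* at 1.56 in WT mice and *Nr1d1* at -2.08 between the genotypes with FAEE-SAP.

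*Per3* and *Ciart* entered both comparisons with the WT FAEE-SAP libraries through the expression minimum that both WT FAEE-SAP libraries reached, and no WT saline library did. *Nr1d1* also needed these libraries, since 1 of 2 WT saline and 1 of 2 cKO FAEE-SAP libraries reached the minimum. Counts over the 10 members therefore lean on the group where these genes were high and are not read as support. In WT mice an unadjusted p under 0.05 between FAEE-SAP and saline was had by *Dbp*, *Tef*, *Per3*, *Nr1d1*, *Nr1d2*, and *Arntl*, 6 of 10 members, beside 27.8% of all genes. That of *Per3* is not read as a difference, and of the 6 only *Dbp* and *Nr1d1* were called. The same 6 did not overlap, as was true of 58.8% of all genes. Between cKO and WT with FAEE-SAP, 4 of 10 members, *Dbp*, *Nr1d1*, *Nr1d2*, and *Arntl*, had an unadjusted p under 0.05, where 19.6% of all genes did, and the same 4 did not overlap, beside 51.9% of all genes. A minimum on the mean of all 8 libraries, chosen after the data were seen, kept 8 members, without *Per3* and *Ciart*. It left 5 of 8 at an unadjusted p under 0.05 in WT mice, beside 28.5% of 9739 genes, and 4 of 8 between the genotypes with FAEE-SAP, beside 20.4%. The calls of *Dbp* and *Nr1d1* in WT mice stayed, whereas that of *Nr1d1* between the genotypes was lost (limma adjusted p = 0.0526). The median log2 fold change of these 8 members was 0.42 in WT mice, against -0.0039 for all genes, and -0.20 between the genotypes with FAEE-SAP, against 0.01.

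The response to FAEE-SAP was also compared between the genotypes in 1 model of all 8 libraries. None of the 10 members was called with limma (0 of 10, beside 0.0719% of all genes), and 3 of 10 had an unadjusted p under 0.05, beside 12.6% of all genes. *Nr1d1* had a difference of responses of -2.49 (SE 0.37, limma adjusted p = 0.0765). That of *Nr1d2* was -1.54 (SE 0.55, limma adjusted p = 0.338), or -1.01 without cKO FAEE-SAP replicate 1, and that of *Dbp* was -1.50 (SE 0.41, limma adjusted p = 0.263). *Arntl* had an unadjusted p above 0.05.

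The ratio of *Dbp* to *Arntl* within a library does not depend on how libraries were scaled. The ratio stood at 0.180 and 0.291 in WT saline, at 0.329 and 0.137 in cKO saline, and at 0.305 and 0.268 in cKO FAEE-SAP. In WT FAEE-SAP it was 5.30 and 1.34. *Dbp* thus exceeded *Arntl* only in the 2 WT FAEE-SAP libraries, and the other 6 libraries, both cKO FAEE-SAP libraries included, overlapped in a range below 1.

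**Figure D3:**
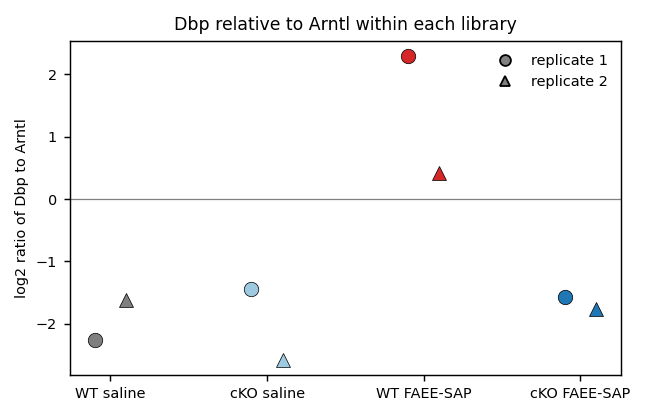
The log2 ratio of *Dbp* to *Arntl*, each as deposited RPKM + 0.1, in the 8 libraries (circles replicate 1, triangles replicate 2; the line marks equal levels). Both WT FAEE-SAP libraries lie above 0, at 2.30 and 0.41, and the other 6 lie between -2.58 and -1.44.

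Of 20 further core clock genes, 14 were tested in WT mice, and 1 rose, *Bhlhe40*, which encodes the E-box repressor DEC1, from 1.09 and 0.930 with saline to 2.29 and 3.76 with FAEE-SAP (log2 fold change 1.45, limma adjusted p = 0.0425), a call lost without any 1 library (1.11 to 1.80, adjusted p 0.0663 to 0.175). The 1 of 14 called stands beside 6.89% of all genes, and 5 of 14 had an unadjusted p under 0.05, beside 27.8%. The median of the 14 was 0.08, against 0.02 for all genes. Between the genotypes with FAEE-SAP 0 of 14 were called with limma and 3 had an unadjusted p under 0.05, beside 19.6% of all genes. After saline 0 of 13 were called with limma and 0 had an unadjusted p under 0.05, beside 0.0% and 2.27% of all genes. In cKO mice 0 of 14 were called and 1 had an unadjusted p under 0.05, beside 0.0531% and 9.56%. *Npas2*, a CLOCK paralog named here after its values were seen and too low to be tested, was at 0.243 and 0.238 in WT saline, 0.0315 and 0.0626 in WT FAEE-SAP, 0.374 and 0.480 in cKO saline, and 0.282 and 0.104 in cKO FAEE-SAP, lowest like *Arntl* in WT FAEE-SAP.

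Among 12 clock output genes, 10 were tested in WT mice, of which 1 rose and 1 fell, beside 6.89% of all genes called. An unadjusted p under 0.05 was had by 4 of the 10, beside 27.8% of all genes. *Tspan4*, a tetraspanin gene, rose from 1.67 and 1.65 with saline to 6.17 and 5.75 with FAEE-SAP (log2 fold change 1.79, limma adjusted p = 0.00853). The *Tspan4* call was lost without WT FAEE-SAP replicate 1 (1.73, adjusted p 0.0592) or replicate 2 (1.83, adjusted p 0.0852). *Usp2*, a deubiquitinase gene, fell from 4.31 and 2.09 to 0.600 and 0.532 (log2 fold change -2.22, limma adjusted p = 0.0274). The *Usp2* call was lost without WT saline replicate 1 (-1.72, adjusted p 0.0713) and without WT FAEE-SAP replicate 1 (-2.30, adjusted p 0.104) or 2 (-2.15, adjusted p 0.175). In cKO FAEE-SAP *Usp2* measured 0.713 and 6.68, above both WT FAEE-SAP libraries and overlapping with the saline groups. In the other comparisons 0 of the 10 tested were called with limma, with 1 of 10 at an unadjusted p under 0.05 in each and 2 of 10 in the difference of responses. The shares of all genes called there were 1.17% between the genotypes with FAEE-SAP, 0.0% after saline, 0.0531% in cKO mice, and 0.0719% for the difference of responses. The shares at an unadjusted p under 0.05 were 19.6%, 2.27%, 9.56%, and 12.6%, in that order.

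*Per1* is induced by glucocorticoids and by cAMP and calcium signals, so lists of genes known to respond to these were set beside it. Of 12 glucocorticoid-responsive genes, all 12 were tested and 0 were called with limma in any comparison, with 2 of 12 at an unadjusted p under 0.05 in WT mice, beside 27.8% of all genes, and 0 of 12 in each of the others. Of all genes, 6.89% were called in WT mice, 1.17% between the genotypes with FAEE-SAP, 0.0% after saline, 0.0531% in cKO mice, and 0.0719% for the difference of responses. The shares at an unadjusted p under 0.05 in these last 4 were 19.6%, 2.27%, 9.56%, and 12.6%. Of 10 immediate early genes, 7 were tested in WT mice, of which 6 had a positive and 1 a negative log2 fold change (median 0.29, against 0.02 for all genes). An unadjusted p under 0.05 was had by 2 of the 7, beside 27.8% of all genes, and 1 was called, beside 6.89%. This was *Nr4a2*, an orphan nuclear receptor gene, which fell from 1.36 and 0.781 with saline to 0.265 and 0.206 with FAEE-SAP (log2 fold change -1.76, limma adjusted p = 0.0362). The *Nr4a2* call was lost without WT saline replicate 1 (-1.40, adjusted p 0.0907) and without WT FAEE-SAP replicate 1 (-1.89, adjusted p 0.108) or 2 (-1.63, adjusted p 0.199). In the other comparisons, whose shares of all genes are those just given, 0 of the immediate early genes tested were called with limma. Between the genotypes with FAEE-SAP 2 of 7, *Nr4a2* and *Egr1*, had an unadjusted p under 0.05, beside 19.6% of all genes, and 0 of 5 after saline, 0 of 6 in cKO mice, and 0 of 7 in the difference of responses did.

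The spread of *Per1* between the libraries of 1 group was shared by some genes, a pattern noticed after the values were seen. The library with more *Per1* was replicate 1 in WT saline and replicate 2 in the other groups. The same library was the higher one in all 4 groups for 3 of the other 9 members, *Nr1d2*, *Arntl*, and *Nfil3*. It was so for 10 of the 12 glucocorticoid-responsive genes, all but *Zbtb16* and *Cdkn1a*, beside 15.1% of the 11132 genes compared. It was also so for 8 of the 20 further core clock genes, for 5 of the 12 clock output genes, and for 3 of the 10 immediate early genes. *Fkbp5*, a glucocorticoid-induced cochaperone gene, measured 14.9 and 7.35 in WT saline, 6.83 and 21.6 in WT FAEE-SAP, 6.46 and 18.3 in cKO saline, and 3.74 and 30.0 in cKO FAEE-SAP. *Dbp*, *Tef*, *Per2*, *Per3*, *Nr1d1*, and *Ciart* did not follow this order. The part that a difference in glucocorticoid-responsive genes between single libraries has in the *Per1*, *Nfil3*, *Nr1d2*, and *Arntl* values was not tested.

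**Figure D4:**
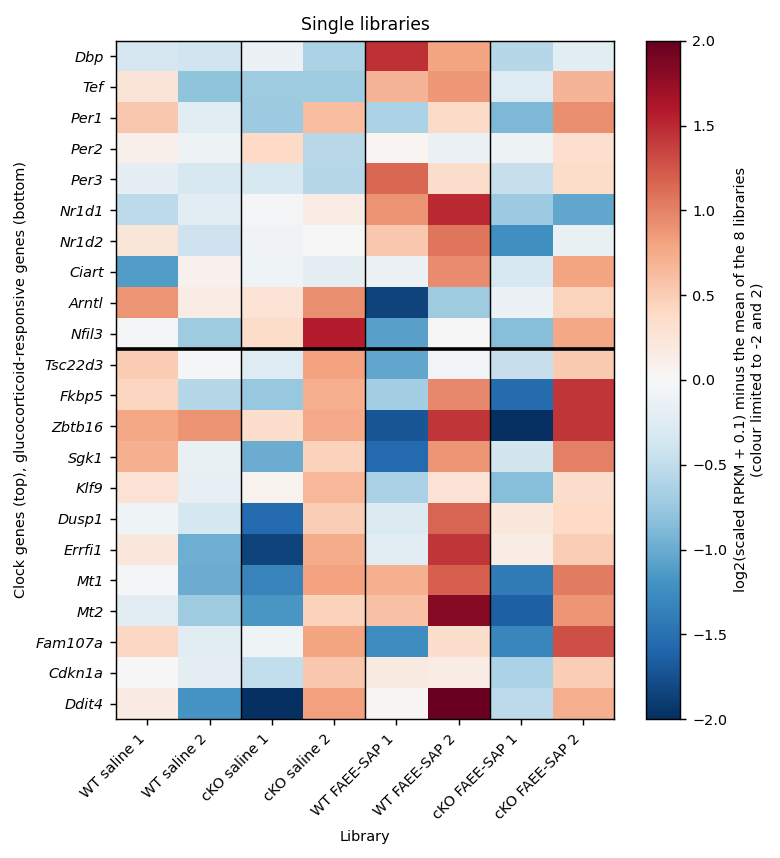
Clock genes (above the line) and glucocorticoid-responsive genes (below it) in each library (columns), as log2(scaled RPKM + 0.1) minus the mean of the gene over the 8 libraries, with colors limited to -2 and 2. In WT FAEE-SAP, *Dbp* and *Nr1d1* are red and *Arntl* blue in both libraries, whereas *Fkbp5*, *Sgk1*, and *Per1* differ between the 2 libraries of a group.

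Across the 8 libraries, the members most like *Dbp* were *Per3* (Pearson r = 0.909) and *Nr1d1* (r = 0.758), and the one most unlike it was *Arntl* (r = -0.902). *Arntl* was most like *Nfil3* (r = 0.676). Among 7302 genes with RPKM of at least 0.5 in all libraries, the 5 most like *Dbp* were *Ccng1*, *Traf4*, *Psmc2*, *Spint1*, and *Psmd11*, with r between 0.961 and 0.967. The 5 most like *Arntl* were *Cers6*, *H1f0*, *Man2a1*, *Smim3*, and *Iqgap2*, with r between 0.976 and 0.981. These correlations describe 8 libraries, 2 of which, those of WT FAEE-SAP, stand apart for both genes.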

How the data were processed

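RNA-Seq of 8 pancreas libraries was used. Per the paper's methods, a directional kit was used for paired-end sequencing, reads were filtered with fastp and mapped to GRCm38.p6 with CLC Genomics Workbench 12.0. The authors deposited RPKM for 48709 genes per library. How RPKM was computed, and whether strand was used, is not given in the sources used here. By symbol, 46325 genes (95.1%) were matched to GENCODE vM21 for coordinates and exonic lengths. Library totals were worked out from the steps of low values, of which 84.1% to 85.6% under 20 reads came out whole within 0.1 reads, so reads per gene are approximate.

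Each library was divided by its median ratio to the geometric mean over 10985 genes. A gene was tested where 2 or more of the libraries compared reached a deposited RPKM of 0.5. The test was that of limma 3.58.1 (R 4.3.3) on log2(scaled RPKM + 0.1), with an intensity trend. Each comparison used its own 4 libraries, and the difference of responses used all 8. Genes were called at a Benjamini-Hochberg adjusted p under 0.05 over all genes tested and at least a 2-fold change. The study's methods state a 2-fold minimum and a p threshold without naming an adjustment, and an unadjusted p with the 2-fold minimum is an alternative here. The procedure was tested on simulated data.

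The members and lists were chosen with earlier results of these data known. *Tsc22d3* and *Cdkn1a* stand in both the output and the glucocorticoid list, and *Dusp1* in the latter and the immediate early list. The text names all members, the called genes of the other lists, up to 5 per list, and the 5 genes most like *Dbp* and *Arntl*. Alternatives were other scalings, filters, pseudocounts, and models, replicate number as a block, and leaving out each library. A block with the numbers of WT saline exchanged, and a minimum on the mean of all 8, were chosen once the data had been seen. Figures were drawn with Python 3.11.15 and matplotlib 3.10.9.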

Additional observations from a re-analysis of the deposited data

Results flagged for a closer look

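For both NR1D genes, the FAEE-SAP libraries lay on opposite sides of the saline libraries in the 2 genotypes, and neither difference of responses passed the adjusted threshold. *Nr1d1* was above both saline libraries in the 2 WT FAEE-SAP libraries and below both saline libraries in the 2 cKO FAEE-SAP libraries, a difference of responses of -2.49 on the log2 scale (limma adjusted p = 0.0765, Benjamini-Hochberg). Read the other way, both cKO libraries of *Nr1d1* lay above WT after saline and below WT with FAEE-SAP, which is the same -2.49. *Nr1d2* likewise lay above saline in both WT libraries and below it in both cKO libraries, with a difference of -1.54 (limma adjusted p = 0.338).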

How the results depend on the processing

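For the 20 log2 fold changes given in the text, 334 alternative values were computed, of which 0 changed direction, 275 stayed on their side of the threshold, 43 lost a call, and 16 gained one. These 20 were chosen as the members with an unadjusted p under 0.05 with limma and the called genes of the other lists. Most alternatives could hardly reverse such a difference, so the 0 is not read as support. The calls themselves were fragile. For cKO against WT with FAEE-SAP, 1 clock gene was called, beside 129 of 11008 genes. With values as deposited 5 were, where 4427 of 11008 genes were called, 73 higher and 4354 lower. Without a filter 0 were called, as were 0 of all 19535 genes. There were also 0 with a minimum on the mean of all 8 libraries, added after the data were seen (108 of 9739 genes). The same held with a pseudocount of 1 (113 of 11008) and without the intensity trend (43 of 11008). With all 8 libraries in 1 model 2 were called (296 of all genes). An unadjusted p under 0.05 and at least a 2-fold change was had by 4 (887 of all genes). For FAEE-SAP in WT mice, 2 were called, beside 751 of 10894 genes. With values as deposited 9 were, where 7184 of all genes were called higher and 86 lower. Without a filter 0 were called (269 of 19311 genes), and with a pseudocount of 1 also 0 (431 of 10894). An unadjusted p under 0.05 with the 2-fold minimum, which *Nr1d2* does not reach, was had by 5 (1298 of all genes). *Arntl* gained a call in 2 alternatives and stayed on its side of the threshold in 15. For the difference of responses, 0 were called, and 3 were as deposited, 1 with quantile normalization, and 3 with an unadjusted p, where 791, 25, and 782 of all genes were, against 8. For the saline groups, 0 were called, and 1, *Nfil3*, had an unadjusted p under 0.05 with limma and at least a 2-fold change, beside 68 of 8715 genes. Each clock gene call was lost when 1 library was left out, which leaves a group with 1 library. Calls over all genes also fell then in every comparison that had any, so these losses are not particular to the clock genes. The cause of these changes was not tested, other than that a left-out library reduces the samples.

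The labels share replicate numbers across groups, but same-numbered libraries deviated together in some pairs of groups and not in others (correlation across 11133 genes from -0.522 to 0.399), so the numbers were not taken as pairs. With a replicate block, 4 clock genes, *Dbp*, *Nr1d1*, *Nr1d2*, and *Arntl*, were called between the genotypes with FAEE-SAP, where calls over all genes went from 129 to 717, and 1, *Nr1d1*, for FAEE-SAP in WT mice, where they went from 751 to 533 and the adjusted p of *Dbp* was 0.0529 (limma). With the numbers of WT saline exchanged in the block, 1 was called for the difference of responses, beside 68 of all genes.

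The log2 ratio of *Dbp* to *Arntl*, from deposited RPKM, was also taken with pseudocounts other than 0.1. Since the same pseudocount is added to both genes, the sign cannot change, and only the size of the ratio is compared. With a pseudocount of 1 it was -1.35 and -0.93 in WT saline 1 and 2, -1.44 in cKO saline 2, and -0.90 and -1.12 in cKO FAEE-SAP 1 and 2, with -0.77 in cKO saline 1 and 1.67 and 0.31 in WT FAEE-SAP 1 and 2, and with none it was -1.71 in cKO FAEE-SAP 1. Depth limits *Ciart* and *Per3* most, whose values rest on few reads in the saline libraries.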
